A study of Homo sapiens with 12 samples.

Results

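The difference in the response to TPA between 2 U937 populations was measured gene by gene, as the TPA response of EVI1-labelled cells minus that of empty vector cells. All 12 arrays of the series enter it. Of 19775 genes tested, 392 (1.98%) passed an adjusted p of 0.05 in limma with Benjamini-Hochberg adjustment and are the members described here. They are said below to be called. Of these, 185 (0.936% of the genes tested) had a difference above 0 and 207 (1.05%) a difference below 0. Each was then sorted by whether its response was itself called in each population. A response called only in empty vector cells was lost, and one called only in EVI1-labelled cells was gained. A response called the same way in both was blunted or enhanced, according to which population had the larger, and one called in opposite directions was reversed.

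U937 is an established human myelomonocytic leukaemia line, here transduced with an expression vector for EVI1 or with the empty vector. Both populations were kept in RPMI with fetal calf serum and received 50 ng/ml TPA or the same amount of ethanol, its solvent, for 24 h. This gave 4 groups of 3 arrays of total RNA: empty vector cells in ethanol, empty vector cells in TPA, EVI1-labelled cells in ethanol and EVI1-labelled cells in TPA. Each group is described as 3 biological replicates. The sources do not show separate transductions, so the p-values measure the spread between these samples, and each vector may stand for 1 transduced population.

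TPA is a phorbol ester that takes the place of diacylglycerol on protein kinase C and RasGRP proteins. In U937 cells it stops division and drives a macrophage-like state, in which AP-1 and NF-kB factors switch on cytokine, chemokine and receptor genes while progenitor and cell cycle genes are shut down. EVI1, which the MECOM locus encodes, is a DNA-binding protein with zinc fingers known for its overexpression in myeloid leukaemias and can recruit both repressing and activating partners. NF-kB is held in the cytoplasm by inhibitors such as the product of NFKBIA, and its own targets include those inhibitors, so their RNA is a common readout of its activity.

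Values are log2 probe set signals, on which 1 unit is a factor of 2, and arrays are listed in the order of replicates 1, 2 and 3. Differences and responses are given with the fitted standard error (SE). The 5 MECOM probe sets read between 2.59 and 3.32 on every array and none was called between the populations in either treatment, with adjusted p from 0.102 up. No given source says whether they lie in the part of the transcript carried by the vector, so they do not check the labels. No array held a detection call. A group mean below 5.07, which was the lowest median of any array, cannot be told from background, and a response that starts or ends there may be understated. This held for at least 1 group in 96 of the 392 genes and for all 4 groups in 11. U937 markers at or above that level numbered 12 of 13 in 3 groups and 10 of 13 in EVI1-labelled cells in TPA, where the granule protein genes AZU1 and PRTN3 were below it besides FCGR1A. Their summed level ran from 109.5 to 112.1 in empty vector cells in ethanol, 106.9 to 109.8 in TPA, 107.5 to 109.8 in EVI1-labelled cells in ethanol and 99.7 to 104.7 in TPA. Of the other cell types, 3 to 4 of 10 lymphoid, 7 to 8 of 9 erythroid and megakaryocyte and 4 to 5 of 11 epithelial and fibroblast markers reached it per group, and none of the markers in these 4 lists was called for the difference in limma, with 5 in all at an unadjusted p under 0.05. The gap between the 3' and 5' control probe sets of ACTB, which widens as RNA degrades, went from 1.78 ± 0.07 (SD, n = 3) to 1.36 ± 0.25 with TPA in empty vector cells and from 1.91 ± 0.16 to 1.25 ± 0.03 in EVI1-labelled cells. Its part in the differences was not tested.

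The response was smaller in EVI1-labelled cells for most called genes. Over all genes, empty vector cells had 43.2% of responses called and EVI1-labelled cells 40.0% (19.4% rises and 20.6% falls). Blunted genes numbered 208, of which 134 were rises and 74 falls in empty vector cells, and lost genes 75, with 45 rises and 30 falls. The larger response lay in EVI1-labelled cells for 55 enhanced genes, 46 of them rises and 9 falls, and 40 gained genes, 26 rises and 14 falls. The remaining 14 were reversed, 5 of them rising and 9 falling in empty vector cells. Blunted genes kept a median of 55.4% of their empty vector response, from 13.7% to 88.4%, and enhanced genes reached a median of 190% of it. Among lost genes, 56 had a 95% interval for the EVI1 response that lay within 50% of the empty vector response in size. For the rest of the lost genes the interval reached past that size, in the empty vector direction or, as for LTBP1 and SLC39A10, in the opposite one. All classes rest on the same arrays as the test, so values within a class are a description.

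**Figure D1:**
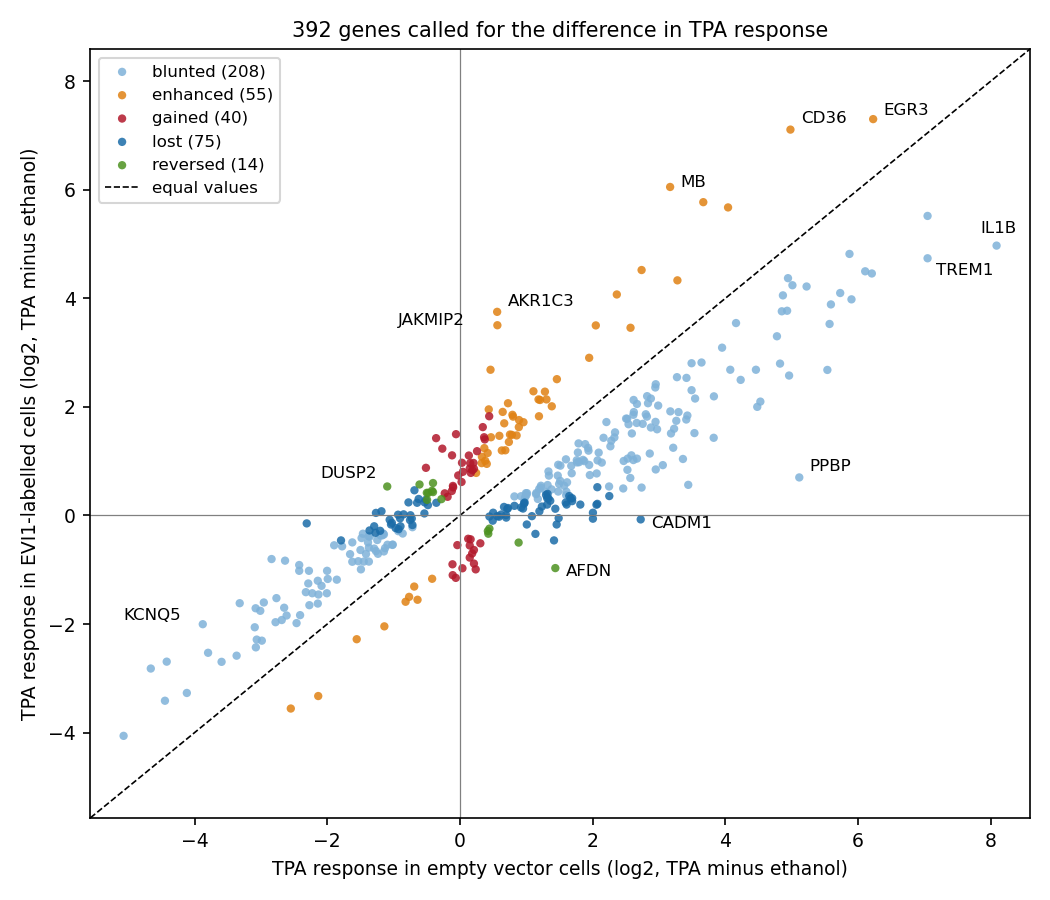
Each point is 1 of the 392 called genes, with its log2 response to TPA in empty vector cells on the x axis and in EVI1-labelled cells on the y axis, coloured by class, and the dashed line marks equal responses. Rises in empty vector cells lie mostly below the line and falls above it, toward 0, as in 134 blunted and 45 lost rises and 74 blunted and 30 lost falls, while AKR1C3, JAKMIP2, MB and CD36 lie above it.

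The count of called genes depended on single arrays. It was 188 without ethanol array 1 of empty vector cells, 253 without replicate 2 and 193 without replicate 3 of that group. It was 195, 214 and 195 without ethanol arrays 1, 2 and 3 of EVI1-labelled cells. Without replicates 2 and 3 of EVI1-labelled cells in TPA it was 244 and 681. Replicate 3 of that group stood farthest from its group mean, with a root mean square deviation of 0.186 against 0.098 to 0.16 for the others. Every class moved with the array left out, lost genes from 36 to 144, blunted from 89 to 358, enhanced from 16 to 89, gained from 16 to 61 and reversed from 3 to 29, with each highest count reached without that replicate 3. Of the 392 genes, 157 stayed called whichever array was left out, 31 of them lost, 88 blunted, 16 enhanced, 16 gained and 6 reversed. Genes with that property are said below to hold without any 1 array. Of the 257 called genes with more than 1 probe set, 233 had another with the same sign, 82 had another called the same way and 0 had another called the opposite way.

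**Figure D2:**
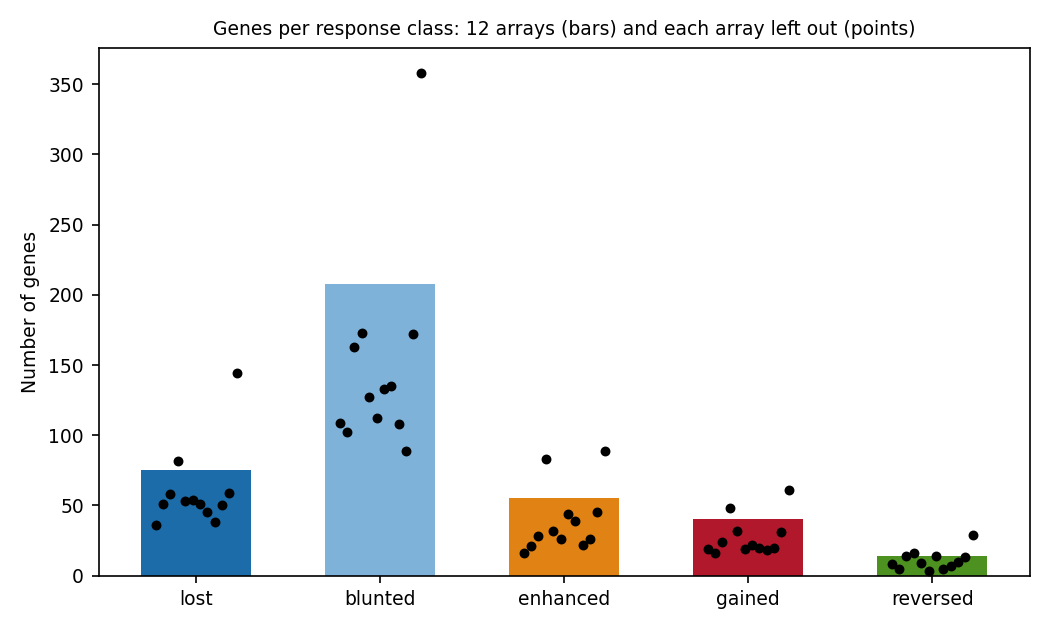
Bars give the number of genes in each response class from all 12 arrays, and each point the number with 1 array left out. The points for blunted genes run from 89 to 358 around the bar at 208 and those for reversed genes from 3 to 29 around the bar at 14.

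Promoters of 5 members are shown because they hold a match to a motif of a factor tied to the TPA response or to the zinc fingers of EVI1, and they were picked after their values were seen. NFKBIA and TNFAIP3 encode inhibitors of NF-kB and lost their rise, and the chemokine genes CCL20 and CXCL2 kept a smaller rise. AKR1C3, an aldo-keto reductase gene, had the largest difference above 0. The 250 bases before each start site are given 5' to 3' on the gene's strand, from RefSeq on GRCh38.p14, with the match in capitals. In the first 4 the capitals are matches to the NF-kB consensus, 2 overlapping ones on opposite strands in CXCL2, and in AKR1C3 they are AGATAA.
NFKBIA, chr14:35404750-35404999, minus strand: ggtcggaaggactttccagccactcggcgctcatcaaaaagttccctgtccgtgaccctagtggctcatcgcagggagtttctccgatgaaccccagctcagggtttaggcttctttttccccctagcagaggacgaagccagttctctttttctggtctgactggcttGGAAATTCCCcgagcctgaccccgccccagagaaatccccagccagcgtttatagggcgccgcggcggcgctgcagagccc
TNFAIP3, chr6:137867009-137867258, plus strand: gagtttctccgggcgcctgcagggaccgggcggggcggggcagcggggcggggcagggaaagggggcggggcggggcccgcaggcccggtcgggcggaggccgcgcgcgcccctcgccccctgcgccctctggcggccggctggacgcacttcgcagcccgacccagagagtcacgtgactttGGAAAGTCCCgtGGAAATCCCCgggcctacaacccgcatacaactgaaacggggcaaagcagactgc
CCL20, chr2:227813592-227813841, plus strand: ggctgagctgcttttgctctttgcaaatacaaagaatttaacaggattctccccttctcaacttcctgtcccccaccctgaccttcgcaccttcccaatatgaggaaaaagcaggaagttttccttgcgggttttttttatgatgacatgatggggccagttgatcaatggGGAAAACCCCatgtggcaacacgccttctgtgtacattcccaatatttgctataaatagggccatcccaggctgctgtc
CXCL2, chr4:74099196-74099445, minus strand: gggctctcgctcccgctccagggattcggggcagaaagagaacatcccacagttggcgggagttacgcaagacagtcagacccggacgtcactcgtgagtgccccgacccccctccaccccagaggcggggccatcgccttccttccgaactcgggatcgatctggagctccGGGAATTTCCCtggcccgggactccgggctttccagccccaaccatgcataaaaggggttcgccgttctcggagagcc
AKR1C3, chr10:5048531-5048780, plus strand: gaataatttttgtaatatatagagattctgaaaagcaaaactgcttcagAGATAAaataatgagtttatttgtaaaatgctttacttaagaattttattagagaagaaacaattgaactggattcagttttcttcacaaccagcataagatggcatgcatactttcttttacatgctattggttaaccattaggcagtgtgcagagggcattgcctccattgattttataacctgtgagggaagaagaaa

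The matches lie close to the start in the 4 genes with the NF-kB consensus. They end 72 bases before it in NFKBIA, 58 and 46 in TNFAIP3, 70 in CCL20 and 69 and 68 in CXCL2, while AGATAA ends 196 bases before the start of AKR1C3. Windows from 250 bases before to 50 after the start were given for 15384 of the measured genes, and both strands were searched. The NF-kB consensus was in 12.4% of them, in 18.3% of the 142 windows of lost or blunted rises and in 8.62% of the 58 of enhanced or gained rises. It was also in 30.8% of the 26 windows of lost falls, in 9 of the 60 of blunted falls and in 16.1% of the 317 of all called genes, so a higher share was not limited to rises. The AP-1 motif TGANTCA was in 5.84% of all windows and in 11.3% and 5.17% of those of lost or blunted and of enhanced or gained rises, and AGATAA in 7.51%, 7.04% and 12.1%. Genes that rose by at least 1 in empty vector cells without being called for the difference had 13.8%, 7.75% and 6.14% for the NF-kB consensus, TGANTCA and AGATAA, over 1058 windows. These shares were not tested, and a match is a description of the letters and no sign of binding.

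Lost rises included 2 inhibitors of NF-kB, NFKBIA and TNFAIP3. NFKBIA, whose product holds NF-kB in the cytoplasm, read 7.98, 8.01 and 8.20 in empty vector cells in ethanol and 9.41, 9.43 and 9.72 in TPA. In EVI1-labelled cells it read 8.27, 8.36 and 8.39 in ethanol and 8.30, 7.98 and 8.24 in TPA. The 3 TPA arrays of empty vector cells thus stood above all others, and the groups of EVI1-labelled cells overlapped. The responses were 1.46 ± 0.11 (SE) and -0.17 ± 0.11, a difference of -1.62 ± 0.15 (limma adjusted p = 0.000216). A second NFKBIA probe set had a difference of -0.13 and was not called.

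TNFAIP3, which encodes the ubiquitin editing enzyme A20 that restrains NF-kB signalling, followed the same order. It read 6.65, 6.72 and 6.69 in ethanol and 8.09, 8.35 and 8.69 in TPA in empty vector cells, against 6.62, 6.77 and 6.87 and then 7.19, 6.89 and 7.13 in EVI1-labelled cells. Its second probe set, with a difference of -0.96, was called too. Empty vector cells in TPA were again apart from every other array, and the TPA arrays of EVI1-labelled cells lay just above their ethanol arrays. The difference was -1.37 ± 0.19 (adjusted p = 0.00203), and the EVI1 response of 0.32 ± 0.13 had a 95% interval from 0.03 to 0.60. NFKB2, the p100 precursor subunit gene, read 5.97, 5.89 and 6.12 in empty vector cells in TPA and 5.10 to 5.44 on the other 9 arrays, a difference of -0.69 ± 0.14 (adjusted p = 0.0234). The call of NFKB2 was lost without any of 5 arrays, with an adjusted p of up to 0.0735 (without ethanol array 1 of empty vector cells), while NFKBIA and TNFAIP3 held without any 1 array. These 3 were the called members of 19 genes of NF-kB subunits, inhibitors and kinases (15.8%, against 1.98% of all genes), and all were lower. The list median was -0.08 against 0.01 for all genes. The gene lists were chosen with earlier results of these data known, so such shares are a description. Of the 19 genes of the NF-kB list, 13 rose in empty vector cells and 8 with the EVI1 label. Among all genes 20.7% and 19.4% rose. Such counts depend on a threshold in each population and are no test of the difference. Genes of the list that rose in both populations without being called for the difference included NFKBIE (responses of 1.15 and 0.96), NFKBIZ (2.39 and 2.14), NFKBID (2.77 and 2.80) and CYLD (1.34 and 1.33), with adjusted p of 0.496, 0.661, 0.984 and 0.993 for the difference. The subunit genes RELA, at -0.18 ± 0.19, and NFKB1, at 0.07 ± 0.16, were not called.

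Other lost rises included CD14, HPSE and FCGR1BP. CD14, the coreceptor for lipopolysaccharide, read 4.58, 4.81 and 4.84 in ethanol and 6.72, 7.27 and 6.25 in TPA in empty vector cells. In EVI1-labelled cells it read 5.29, 4.90 and 5.13 in ethanol and 4.98, 5.18 and 4.98 in TPA, so those groups overlapped and all 6 values were below the TPA-treated empty vector arrays. The difference was -2.06 ± 0.27 (adjusted p = 0.00179), with the means of empty vector cells in ethanol and EVI1-labelled cells in TPA below 5.07. HPSE, which encodes the heparan sulfate cleaving enzyme heparanase, read 7.79, 8.28 and 8.29 in empty vector cells in TPA and 5.87 to 6.54 on all other arrays. Its difference of -1.86 ± 0.24 (adjusted p = 0.00128) was matched by a second called probe set at -2.56. FCGR1BP, a pseudogene of the Fc gamma receptor I family, rose by 2.07 ± 0.21 in empty vector cells against 0.21 ± 0.21 and may share probes with its relatives. All 3 held without any 1 array.

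CADM1 and LTBP1 were lower in EVI1-labelled cells from the start. CADM1, a cell adhesion molecule gene, read 7.13, 7.17 and 6.94 in ethanol and 9.73, 9.98 and 9.70 in TPA in empty vector cells. It read 4.60, 4.42 and 4.63 in ethanol and 4.71, 4.27 and 4.45 in TPA in EVI1-labelled cells, all below 5.07. The gap between populations was -2.53 ± 0.12 in ethanol and -5.33 ± 0.12 in TPA, and the difference in response was -2.80 ± 0.17 (adjusted p = 3.22e-06), with all 5 other probe sets negative and 2 of them called. LTBP1, whose product binds latent TGF-beta, rose from 9.46, 9.30 and 8.84 to 10.79, 10.84 and 10.22 in empty vector cells and went from 6.60, 6.68 and 6.67 to 6.54, 5.81 and 6.22 in EVI1-labelled cells. The 4 groups did not overlap, and the difference was -1.88 ± 0.28 (adjusted p = 0.00401). The EVI1 response of LTBP1, -0.46 ± 0.20, was not called, and its second probe set at -0.83 was not called for the difference. Both genes held without any 1 array.

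Lost falls were smaller in size, with a median difference of 0.88 against -1.10 for lost rises. PLCXD1, a phospholipase C family gene, read 8.46, 8.48 and 8.42 in ethanol and 7.30, 7.38 and 7.13 in TPA in empty vector cells, and 8.31, 8.49 and 8.40 and then 8.40, 8.78 and 8.25 in EVI1-labelled cells. It fell in empty vector cells, with no overlap, and its EVI1-labelled groups overlapped, for a difference of 1.26 ± 0.17 (adjusted p = 0.00179). NFIA and HMGA1, named after their values were seen, encode a transcription factor and a chromatin protein linked to proliferation. NFIA went from 7.33, 7.24 and 7.42 to 6.28, 6.31 and 6.22 in empty vector cells and from 7.32, 7.34 and 7.28 to 7.18, 7.34 and 7.18 in EVI1-labelled cells. HMGA1 responded by -1.04 ± 0.08 and -0.17 ± 0.08. The differences were 0.98 ± 0.11 (adjusted p = 0.000595) for NFIA and 0.87 ± 0.11 (adjusted p = 0.00133) for HMGA1. LINC01088, a long noncoding RNA, fell from 7.93, 8.02 and 7.54 to 5.71, 6.13 and 4.72 in empty vector cells and lay between 2.91 and 3.57 on all 6 EVI1-labelled arrays, below 5.07, where a fall could not have been measured. These 4 held without any 1 array, though the 2 other LINC01088 probe sets had differences of only -0.15 and -0.01. The other PLCXD1 probe set, at 0.34, was not called. PRICKLE1 and INHBB, which encode a planar polarity protein and an activin subunit, had differences of 1.33 ± 0.30 and 1.31 ± 0.30 and lost their calls without any of 10 and 9 arrays, with adjusted p of up to 0.101 (without ethanol array 3 of empty vector cells) and 0.113 (without ethanol array 2 of EVI1-labelled cells).

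Of 19 genes of inflammatory cytokines and the interleukin 1 family, 10 rose in empty vector cells and 8 with the EVI1 label. For the difference 5 were called, or 26.3% against 1.98% of all genes. IL1B, the gene of interleukin 1 beta, read 5.54, 5.87 and 5.47 in ethanol and 13.77, 13.70 and 13.67 in TPA in empty vector cells. In EVI1-labelled cells it read 6.10, 6.07 and 5.96 in ethanol and 11.51, 10.05 and 11.48 in TPA. Each TPA group was above its ethanol group, and the TPA groups did not overlap. The response was 8.09 ± 0.28 and 4.97 ± 0.28, or 61.5% of the empty vector response on the log2 scale, a difference of -3.12 ± 0.40 (adjusted p = 0.00134), and a second probe set at -2.44 was called.

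TNF, the tumour necrosis factor gene, rose from 6.10, 6.34 and 6.14 to 9.39, 9.29 and 9.68 in empty vector cells and from 6.26, 6.50 and 6.77 to 8.31, 8.04 and 8.41 in EVI1-labelled cells. OSM, which encodes the interleukin 6 family cytokine oncostatin M, rose from 5.61, 5.60 and 5.49 to 8.91, 8.88 and 8.55 and from 5.38, 5.52 and 5.49 to 7.05, 6.65 and 6.43. In both genes the EVI1-labelled TPA arrays lay between the ethanol arrays and the TPA arrays of empty vector cells, without overlap. The differences were -1.52 ± 0.20 (adjusted p = 0.00179) for TNF and -1.97 ± 0.20 (adjusted p = 0.000264) for OSM. IL1RN, which encodes the receptor antagonist of interleukin 1, had a difference of -2.03 ± 0.38 (adjusted p = 0.0159, and 0.0505 without ethanol array 3 of EVI1-labelled cells), and with the mean over its probe sets -0.87 (adjusted p = 0.0541). IL1A, counted as lost, had -0.75 ± 0.17 (adjusted p = 0.0421), all its groups lay below 5.07, and without any of 10 arrays its adjusted p rose past the threshold, to at most 0.110 (without ethanol array 2 of EVI1-labelled cells). IL1B, TNF and OSM held without any 1 array. These 5 were all lower, and the list had a median of -0.11 and differences from -3.12 to 0.17. IL18, with responses of 1.34 and 1.25, CSF1, with 0.67 and 0.74, and IL10, with 3.43 and 2.60, were not called for the difference, at adjusted p of 0.888, 0.888 and 0.288.

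The largest difference in size among the 19775 genes was that of a chemokine gene. PPBP, of the CXC family, rose from 3.09, 2.91 and 3.32 to 7.89, 8.06 and 8.71 in empty vector cells and from 3.00, 2.96 and 3.33 to 3.72, 3.43 and 4.24 in EVI1-labelled cells. All EVI1-labelled arrays were below 5.07, and the TPA arrays of empty vector cells stood far above the other 9. The difference was -4.41 ± 0.31 (adjusted p = 1.47e-05).

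CCL20, which attracts CCR6-bearing lymphocytes and dendritic cells, rose from 5.99, 6.11 and 6.10 to 10.78, 10.58 and 10.42 in empty vector cells and from 5.81, 6.14 and 6.09 to 8.34, 7.59 and 8.40 in EVI1-labelled cells. CXCL2, a neutrophil attractant, rose from 5.95, 5.96 and 5.78 to 8.80, 8.91 and 9.15 and from 5.78, 5.97 and 5.70 to 6.55, 6.18 and 7.50. The ethanol groups of the populations overlapped in both genes and the TPA groups did not. The differences were -2.43 ± 0.25 (adjusted p = 0.000337) and -2.13 ± 0.34 (adjusted p = 0.00539), at 46.3% and 30.3% of the empty vector response. The related CXCL3 had -1.96 ± 0.21 (adjusted p = 0.000337), with ethanol levels below 5.07 as in CCL4, and CCL4, which attracts monocytes and T cells, had -2.38 ± 0.42 (adjusted p = 0.0104).

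CCL5, another chemokine gene for T cells and monocytes, lost its rise. It went from 10.14, 10.01 and 9.81 to 11.00, 11.41 and 10.96 in empty vector cells and from 9.65, 9.44 and 9.57 to 9.37, 8.89 and 9.38 in EVI1-labelled cells, with no overlap between any of the 4 groups. The difference was -1.48 ± 0.21 (adjusted p = 0.00271), and the EVI1 response of -0.34 ± 0.15 was not called. CXCL8, the interleukin 8 gene, kept 77.5% of its response, a difference of -1.09 ± 0.25 (adjusted p = 0.0414). The CXCL8 call was lost without any of 8 arrays, with an adjusted p of up to 0.111 (without ethanol array 3 of empty vector cells), and the other 6 chemokine genes held without any 1 array. In all 7 of 23 CC and CXC chemokine genes were called (30.4%, against 1.98% of all genes), all lower. The list median was -0.32 against 0.01 for all genes. Of the 23, 15 rose in empty vector cells and 14 with the EVI1 label. CCL2 and CCL7, monocyte attractants that rose by over 5 in both populations, had differences of -1.12 ± 0.47 and -0.94 ± 0.58 that were not called.

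Further blunted rises included receptor genes of the innate immune system. TREM1, an amplifier of inflammatory signalling, rose from 4.95, 4.67 and 4.66 to 11.50, 12.01 and 11.91 in empty vector cells and from 5.12, 4.72 and 5.49 to 9.92, 9.16 and 10.46 in EVI1-labelled cells. TLR2, the receptor for bacterial lipopeptides, rose from 5.27, 5.52 and 5.24 to 8.27, 8.74 and 8.56 and from 5.10, 5.46 and 5.38 to 6.58, 6.68 and 7.21. Both rose in each population without overlap, and the TPA groups did not overlap between the populations, with TREM1 below 5.07 in empty vector cells in ethanol. The differences were -2.31 ± 0.38 (adjusted p = 0.00679) and -1.67 ± 0.23 (adjusted p = 0.00229).

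CLEC7A, the beta-glucan receptor dectin 1, had a difference of -2.48 ± 0.43 (adjusted p = 0.0099), with ethanol levels below 5.07 and all 5 other probe sets negative, 2 of them called. CLEC5A, another myeloid lectin receptor gene, had -1.71 ± 0.23 (adjusted p = 0.00179) and was already lower in EVI1-labelled cells in ethanol, at -0.66 ± 0.16. The formyl peptide receptor gene FPR1 had -1.46 ± 0.24 (adjusted p = 0.00678). CD163, the haemoglobin scavenger receptor gene, had -1.62 ± 0.38 (adjusted p = 0.0447) with both ethanol groups below 5.07, a call lost without any of 10 arrays, with an adjusted p of up to 0.122 (without ethanol array 1 of empty vector cells). TREM1, TLR2, CLEC7A, CLEC5A and FPR1 held without any 1 array. Of 25 pattern, Fc and scavenger receptor genes 5 were called lower and 1 higher (24.0%). Of 25 Toll-like receptor and inflammasome genes 2 were called lower, CD14 and TLR2, and 0 higher (8.0%, against 1.98% of all genes). The list medians were -0.34 and -0.10.

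Feedback and signalling genes were among the blunted rises too. RGS16, which switches off G protein signals, rose from 7.08, 7.23 and 7.10 to 11.22, 11.04 and 10.63 in empty vector cells and from 7.04, 7.16 and 7.10 to 9.56, 8.75 and 9.57 in EVI1-labelled cells. The ethanol groups overlapped and the TPA values did not overlap, for a difference of -1.63 ± 0.27 (adjusted p = 0.00709). RASGRP3, a Ras activator that binds phorbol esters directly, rose from 3.67, 3.73 and 3.36 to 9.81, 9.38 and 9.27 and from 4.02, 3.53 and 3.67 to 7.85, 7.10 and 8.21, a difference of -1.92 ± 0.33 (adjusted p = 0.00956), with both ethanol groups below 5.07. A second RASGRP3 probe set had a difference of -0.11 and was not called. RASGRP2, a relative of RASGRP3, fell in both populations, and by less in EVI1-labelled cells, with a difference of 0.65 ± 0.14 (adjusted p = 0.0334). DUSP10, a phosphatase gene for p38 and JNK kinases, had a difference of -0.96 ± 0.21 (adjusted p = 0.0377). The calls of RASGRP2 and DUSP10 were lost without any of 10 and 8 arrays, with adjusted p of up to 0.0900 (without ethanol array 2 of EVI1-labelled cells) and 0.0994 (without ethanol array 1 of empty vector cells), whereas RGS16 and RASGRP3 held without any 1 array. RASGRP2 and RASGRP3 were the called genes of 17 phorbol ester receptor genes, while the MAPK feedback and RGS list had 3 of 20 called, 2 lower and DUSP2 higher, and 17 of its 20 differences were below 0.

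Of 27 myeloid and progenitor transcription factor genes, 12 fell in empty vector cells and 9 with the EVI1 label. Among all genes 22.5% and 20.6% fell. For the difference 4 of the 27 were called, or 14.8% against 1.98% of all genes. MYB, which sustains immature myeloid cells, read 12.79, 12.64 and 12.75 in ethanol and 8.28, 8.20 and 8.44 in TPA in empty vector cells, and 12.69, 12.57 and 12.78 and then 10.10, 10.27 and 9.59 in EVI1-labelled cells. GFI1, a zinc finger repressor gene of granulocyte precursors, fell from 10.77, 10.63 and 10.78 to 7.99, 7.76 and 7.56 and from 10.63, 10.53 and 10.55 to 9.0, 9.32 and 8.58. In both genes the ethanol groups overlapped or touched and the EVI1-labelled TPA arrays stood above those of empty vector cells. The differences were 1.73 ± 0.20 (adjusted p = 0.000664) for MYB, with a second probe set at 1.14 called too, and 1.35 ± 0.22 (adjusted p = 0.0059) for GFI1.

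CEBPA, a master factor of the granulocyte and monocyte lineage, lost its fall of -0.62 ± 0.13, with a difference of 0.93 ± 0.18 (adjusted p = 0.0212). ID1, an inhibitor of helix-loop-helix factors, was lower in EVI1-labelled cells in ethanol, at -1.33 ± 0.12, and fell less, with a difference of 0.82 ± 0.18 (adjusted p = 0.0311). Their calls were lost without any of 5 and 8 arrays, with adjusted p of up to 0.0590 (without ethanol array 3 of EVI1-labelled cells) and 0.0907 (without ethanol array 1 of empty vector cells), and MYB and GFI1 held without any 1 array. These 4 were all higher, and the list median was 0.11. IRF8, a monocyte lineage factor gene, had responses of -1.92 and -1.02, MEIS1 -1.81 and -1.22 and ERG -2.22 and -2.36, and none of them was called for the difference, at adjusted p of 0.0648, 0.17 and 0.832. Among other blunted falls, the potassium channel gene KCNQ5 had a difference of 1.87 ± 0.27 (adjusted p = 0.00296) with empty vector cells in TPA below 5.07, NREP, a neuronal regeneration related gene, 1.70 ± 0.25 (adjusted p = 0.00321) and ACAT2, an acetyl-CoA thiolase gene, 1.51 ± 0.27 (adjusted p = 0.011), and all 3 held without any 1 array. With the mean over its probe sets NREP had 0.92 (adjusted p = 0.053). A second KCNQ5 probe set had a difference of 0.10 and was not called.

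Of the genes in the replication and mitosis lists, CCNB2 alone was called. That made 3.57% of the mitosis list, against 1.98% of all genes. CCNB2, a mitotic cyclin gene, fell from 11.80, 11.64 and 11.70 to 9.44, 9.07 and 9.36 in empty vector cells and from 11.70, 11.68 and 11.74 to 10.85, 10.74 and 10.47 in EVI1-labelled cells. The TPA groups did not overlap, and the difference was 1.40 ± 0.16 (adjusted p = 0.000595), held without any 1 array. Its 2 other probe sets had differences of -0.26 and -0.12, and with the mean over its probe sets the adjusted p was 0.239. The 28 mitosis and spindle genes had a median difference of 0.73, with 26 above 0, and median responses of -4.80 in empty vector and -4.10 in EVI1-labelled cells. The 27 DNA replication genes had a median of 0.33, with 25 above 0, and median responses of -4.13 and -3.74. No replication gene passed the limma test at an adjusted p of 0.05, and 2 passed an unadjusted p of 0.05. The mitotic kinase gene BUB1, at 1.38 ± 0.45 (adjusted p = 0.175), was not called. CDKN1A, the cell cycle inhibitor p21, rose from 7.67, 7.76 and 7.90 to 12.56, 12.73 and 12.64 in empty vector cells and from 8.47, 8.30 and 8.77 to 12.52, 12.49 and 12.69 in EVI1-labelled cells. Its ethanol groups did not overlap and its TPA groups did, so the populations differed in the starting level, and its difference in response was -0.81 ± 0.16 (adjusted p = 0.0224). The call was lost without any of 5 arrays, with an adjusted p of up to 0.0702 (without ethanol array 1 of empty vector cells).

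**Figure D3:**
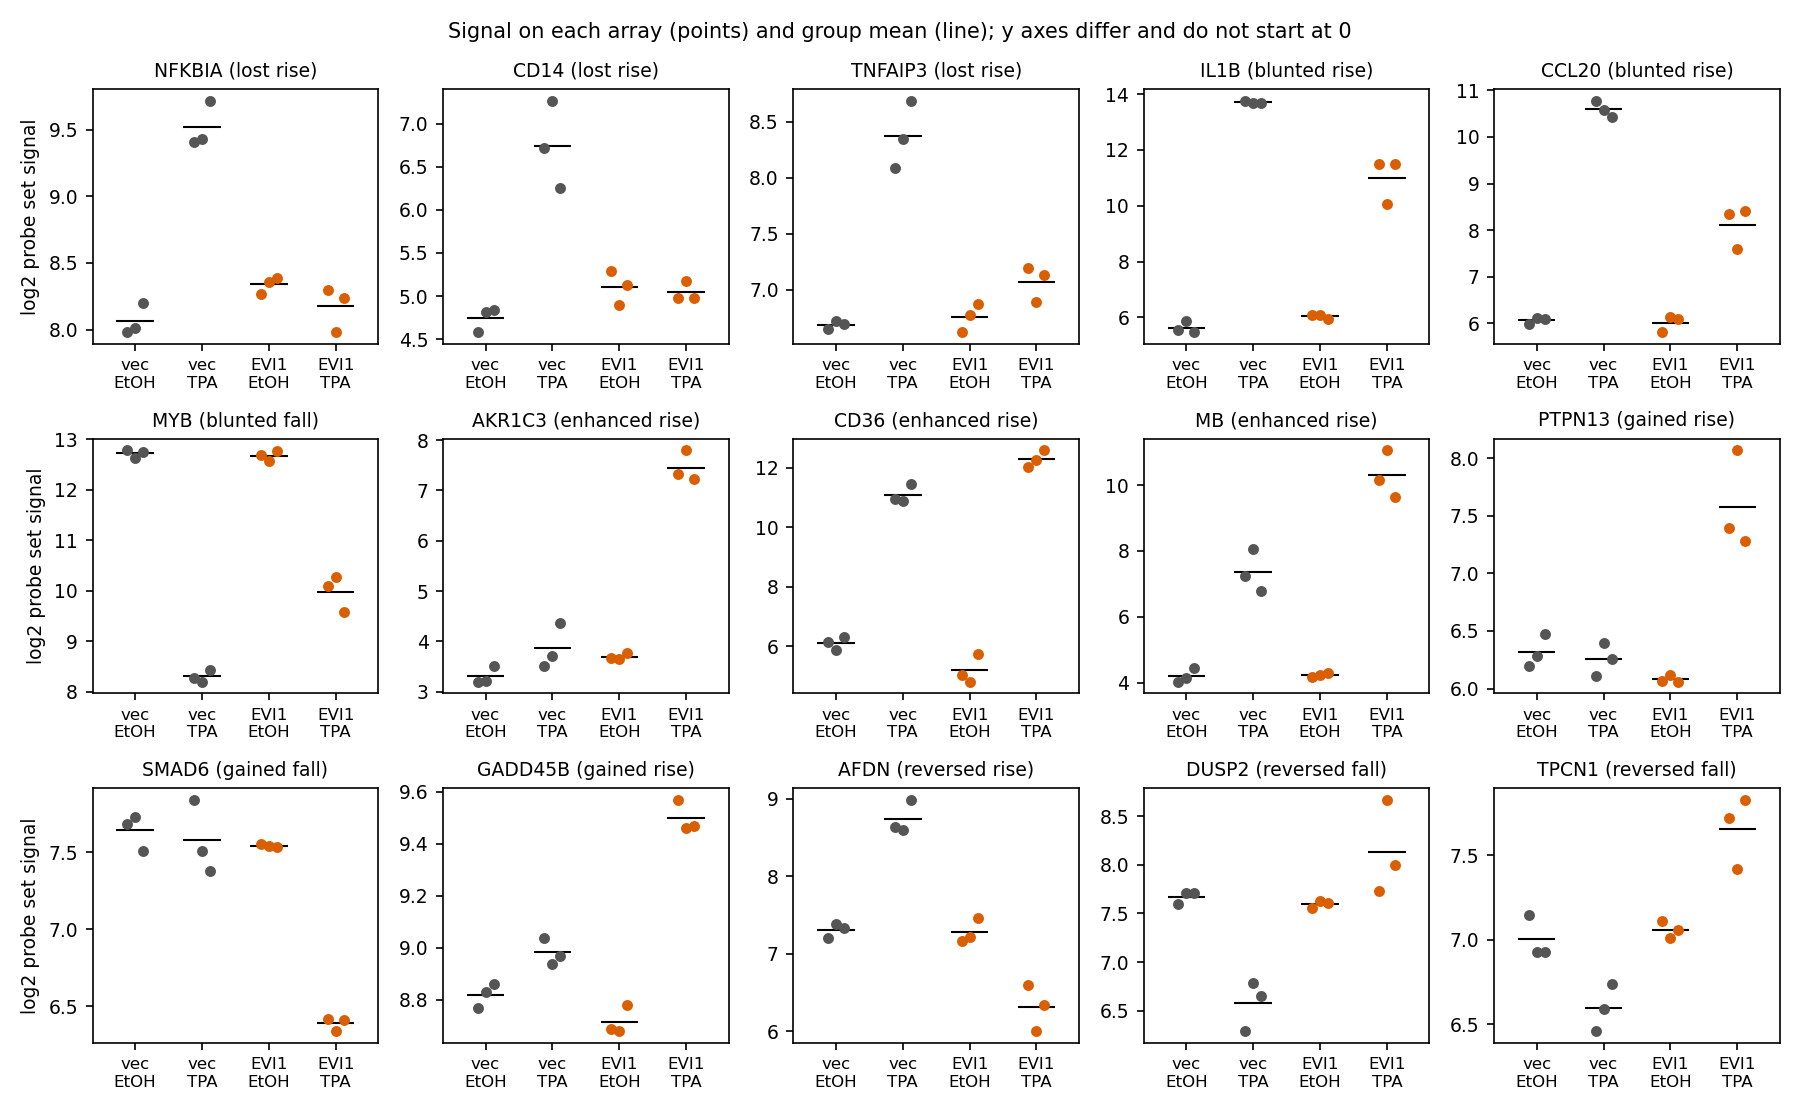
Each panel plots the log2 probe set signal of 1 gene on the 12 arrays (points) with group means (lines), empty vector cells in grey and EVI1-labelled cells in orange, in ethanol and in TPA. NFKBIA, CD14 and TNFAIP3 show a clear rise in grey only, MYB a shallower fall in orange, AKR1C3, CD36 and MB a larger rise in orange, and AFDN and DUSP2 moves in opposite directions.

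Enhanced genes were led by AKR1C3, which encodes an aldo-keto reductase of steroid and prostaglandin metabolism. It read 3.20, 3.21 and 3.51 in ethanol and 3.52, 3.72 and 4.36 in TPA in empty vector cells, all below 5.07, and 3.68, 3.65 and 3.77 and then 7.32, 7.80 and 7.23 in EVI1-labelled cells. Only the TPA arrays of EVI1-labelled cells stood above 5.07. The difference was 3.19 ± 0.27 (adjusted p = 9.24e-05). JAKMIP2, a gene of a Janus kinase and microtubule interacting protein, read 3.18 to 3.33 in ethanol and 3.77 to 3.84 in TPA in empty vector cells and went from 4.56, 4.54 and 4.51 to 7.74, 8.21 and 8.17 in EVI1-labelled cells. Its difference was 2.94 ± 0.15 (adjusted p = 1.02e-06), with a second probe set at 1.84 called. For both genes 3 groups lay below 5.07, so the percentage of the empty vector response is not given.

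CD36, the scavenger receptor for oxidised lipoproteins and fatty acids, rose from 6.13, 5.87 and 6.30 to 10.93, 10.87 and 11.44 in empty vector cells and from 5.01, 4.80 and 5.74 to 12.02, 12.26 and 12.59 in EVI1-labelled cells. EVI1-labelled cells started lower and ended higher, with no overlap in either treatment. The difference was 2.13 ± 0.32 (adjusted p = 0.00401), and all 4 other probe sets were above 0 with 2 called. MB, the myoglobin gene, rose from 4.03, 4.13 and 4.44 to 7.25, 8.07 and 6.78 and from 4.18, 4.24 and 4.30 to 10.16, 11.06 and 9.65, with both ethanol groups below 5.07 and a difference of 2.88 ± 0.46 (adjusted p = 0.0052). RASD2, a Ras-like GTPase gene, had a difference of 2.22 ± 0.21 (adjusted p = 0.000216). These 5 held without any 1 array. KMO, an enzyme of the kynurenine pathway, and NR4A3 and EGR3, immediate early transcription factors, had larger rises at 1.78 ± 0.38 (adjusted p = 0.0311), 1.45 ± 0.30 (adjusted p = 0.0244) and 1.07 ± 0.25 (adjusted p = 0.0489). Those calls were lost without any of 9, 8 and 10 arrays, each with the highest adjusted p, 0.0822, 0.0694 and 0.123, without ethanol array 2 of EVI1-labelled cells, and their ethanol groups lay below 5.07. With the mean over probe sets NR4A3 had 0.61 (adjusted p = 0.103). EGR3 had no other probe set, so its difference stayed at 1.07 in that fit (adjusted p = 0.0524).

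AP-1 and immediate early genes were called in both directions. Of 25 measured, 3 were called higher (NR4A3, EGR3 and IER5) and 1 lower, and the list median was 0.18 with 15 above 0. FOSB, an AP-1 subunit gene, was the one called lower, going from 4.95, 4.70 and 4.78 to 6.15, 6.42 and 6.34 in empty vector cells and from 4.87, 4.89 and 4.92 to 5.33, 5.41 and 5.68 in EVI1-labelled cells. The TPA groups of FOSB did not overlap, its ethanol groups lay below 5.07, and its difference was -0.91 ± 0.15 (adjusted p = 0.00678), held without any 1 array.

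Called cholesterol synthesis genes all had a difference above 0. Of 16 measured, 4 were called higher and 0 lower (25.0%, against 1.98% of all genes). The median difference was 0.54 and 15 were above 0. HMGCS1, which makes the precursor of mevalonate, went from 8.11, 8.01 and 8.13 to 8.34, 8.51 and 8.80 in empty vector cells and from 7.76, 7.74 and 7.91 to 9.05, 9.43 and 9.25 in EVI1-labelled cells. It rose in both without overlap, and the TPA groups were apart, with a difference of 0.97 ± 0.17 (adjusted p = 0.0104). STARD4, a cholesterol transporter gene, had a larger rise by 1.02 ± 0.21 (adjusted p = 0.0277), FDPS, the farnesyl diphosphate synthase gene, lost its fall with 0.70 ± 0.14 (adjusted p = 0.0228), and IDI1, an isopentenyl diphosphate isomerase gene, was reversed with 0.92 ± 0.18 (adjusted p = 0.0212). SQLE was the single member below 0, at -0.25 ± 0.13, and was not called. HMGCS1 held without any 1 array, and the calls of STARD4, FDPS and IDI1 were lost without any of 7, 6 and 7 arrays, each with the highest adjusted p, 0.0815, 0.0653 and 0.0653, without ethanol array 1 of empty vector cells. With the mean over the probe sets of IDI1 the difference was 0.45 (adjusted p = 0.0584).

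Of the 9 enhanced falls, PRKAR2B, a regulatory subunit gene of protein kinase A, fell from 9.47, 9.33 and 9.67 to 6.78, 6.82 and 7.22 in empty vector cells and from 10.05, 9.94 and 10.07 to 6.58, 6.37 and 6.44 in EVI1-labelled cells. EVI1-labelled cells started higher and ended lower, without overlap, for a difference of -1.01 ± 0.17 (adjusted p = 0.00871) that held without any 1 array. JAG1, a Notch ligand gene, had -1.19 ± 0.24 (adjusted p = 0.0242) and KIT, the stem cell factor receptor gene, -0.90 ± 0.20 (adjusted p = 0.0342), lost without any of 5 and 8 arrays, with adjusted p of up to 0.0726 and 0.0931, both without ethanol array 1 of empty vector cells. The 2 groups of KIT in empty vector cells, at 5.06 and 3.92, and its EVI1-labelled cells in TPA, at 4.11, lay below 5.07, so its empty vector fall was within the background range and the size of the difference is uncertain. With the mean over probe sets JAG1 had -0.59 (adjusted p = 0.113).

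Gained responses were modest, with a median EVI1 response of 0.92 for rises and -0.74 for falls. PTPN13, a protein tyrosine phosphatase gene, read 6.20, 6.28 and 6.47 in ethanol and 6.11, 6.40 and 6.26 in TPA in empty vector cells, and 6.07, 6.12 and 6.06 and then 7.39, 8.07 and 7.28 in EVI1-labelled cells. Only EVI1-labelled cells in TPA stood apart, for a difference of 1.56 ± 0.23 (adjusted p = 0.00368). GADD45B, a stress and growth arrest gene, went from 8.77, 8.83 and 8.86 to 9.04, 8.94 and 8.97 in empty vector cells and from 8.69, 8.68 and 8.78 to 9.57, 9.46 and 9.47 in EVI1-labelled cells. Its difference was 0.62 ± 0.10 (adjusted p = 0.0073), and 1 of its 3 other probe sets was called the same way. ITGAD, an integrin alpha gene, had 1.28 ± 0.23 (adjusted p = 0.0139) with both ethanol groups below 5.07, and GRHL1, a grainyhead-like transcription factor gene that was lower in ethanol and higher in TPA in EVI1-labelled cells, had 1.78 ± 0.25 (adjusted p = 0.00229) with EVI1-labelled cells in ethanol below it. These 4 held without any 1 array. The other probe set of PTPN13, at 0.16, and that of GRHL1, at 0.42, were not called.

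Gained falls included a kinase and an inhibitor of SMAD signalling. MAP3K20, a stress kinase gene, read 8.78, 8.69 and 8.91 in ethanol and 8.91, 9.18 and 9.0 in TPA in empty vector cells, and 8.83, 8.75 and 8.91 and then 7.98, 7.70 and 7.83 in EVI1-labelled cells. Its difference was -1.23 ± 0.14 (adjusted p = 0.000651), and all 6 other probe sets were negative with 4 called. SMAD6, the inhibitory SMAD gene, read 7.51 to 7.73 in ethanol and 7.84, 7.51 and 7.38 in TPA in empty vector cells and fell from 7.55, 7.54 and 7.53 to 6.42, 6.34 and 6.41 in EVI1-labelled cells. The difference of SMAD6 was -1.09 ± 0.15 (adjusted p = 0.00229), and with the mean over its probe sets -0.35 (adjusted p = 0.112). Both genes held without any 1 array. CCND3, a D cyclin gene, had -0.70 ± 0.16 (adjusted p = 0.0377), a call lost without any of 9 arrays, with an adjusted p of up to 0.105 (without ethanol array 1 of empty vector cells), and with the mean over its 2 probe sets -0.23 (adjusted p = 0.394).

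Reversed genes moved in opposite directions, and only AFDN and DUSP2 passed 1 in size in either population. AFDN, which encodes the junction protein afadin, rose from 7.20, 7.39 and 7.33 to 8.64, 8.60 and 8.99 in empty vector cells and fell from 7.17, 7.21 and 7.46 to 6.59, 6.0 and 6.34 in EVI1-labelled cells. The ethanol groups overlapped and the TPA groups lay on opposite sides of them. The responses were 1.44 ± 0.15 and -0.97 ± 0.15, a difference of -2.41 ± 0.21 (adjusted p = 9.24e-05). None of the 6 other AFDN probe sets was called, with differences from -0.23 to 0.17, and with the mean over all of them the difference was -0.38 (adjusted p = 0.0858).

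DUSP2, a nuclear phosphatase gene for ERK kinases, fell from 7.60, 7.71 and 7.71 to 6.29, 6.79 and 6.65 in empty vector cells and went from 7.56, 7.63 and 7.61 to 7.73, 8.67 and 8.0 in EVI1-labelled cells. TPCN1, a channel gene of endosomes and lysosomes, fell from 7.15, 6.93 and 6.93 to 6.46, 6.59 and 6.74 and rose from 7.11, 7.01 and 7.06 to 7.72, 7.42 and 7.83. In both genes the 4 groups separated into a lower TPA group in empty vector cells and a higher one in EVI1-labelled cells, with the ethanol groups between them. The differences were 1.63 ± 0.26 (adjusted p = 0.00639) and 1.00 ± 0.16 (adjusted p = 0.00524). ERN1, the endoplasmic reticulum stress sensor gene, had responses of -0.50 ± 0.09 and 0.29 ± 0.09, and MCUB, a subunit gene of the mitochondrial calcium uniporter, 0.44 ± 0.08 and -0.24 ± 0.08. AFDN, CDK5RAP2, MCUB, DUSP2, TPCN1 and ERN1 were the 6 reversed genes that held without any 1 array. With the mean over its probe sets CDK5RAP2, the gene of a centrosome protein, had -0.82 (adjusted p = 0.0559). SLC7A5, an amino acid transporter gene, had -0.76 ± 0.14 (adjusted p = 0.0171) and an adjusted p of 0.0563 without ethanol array 1 of empty vector cells and 0.0527 without ethanol array 2 of EVI1-labelled cells.

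Several other lists held few called genes in number, at shares above the 1.98% of all genes. The BCL2 family had 2 of 16 (12.5%). The survival gene BCL2 lost its rise at -1.09 ± 0.20 (adjusted p = 0.0154) and the death gene BCL2L11 lost its fall at 0.95 ± 0.21 (adjusted p = 0.0365). The call of BCL2L11 was lost without any of 9 arrays, with an adjusted p of up to 0.0989 (without ethanol array 1 of empty vector cells), and with the mean over its 4 probe sets BCL2 had -0.34 (adjusted p = 0.130). Of 29 integrin, matrix and proteolysis genes 10.3% were called for the difference, and 23 rose in each population. The urokinase receptor gene PLAUR and the hyaluronan receptor gene CD44 were called lower, at -0.77 ± 0.16 and -0.76 ± 0.18. The urokinase gene PLAU was called higher, at 0.52 ± 0.12. The calls of PLAUR, CD44 and PLAU were lost without any of 9, 10 and 11 arrays, with adjusted p of up to 0.0806 (without ethanol array 3 of empty vector cells), 0.133 (without ethanol array 1 of EVI1-labelled cells) and 0.130 (without ethanol array 2 of those cells), in that order. Among 22 TGF-beta and SMAD genes 13.6% were called. LTBP1 and the receptor gene TGFBR2, at -0.72 ± 0.14 (adjusted p = 0.0158, and 0.0505 without ethanol array 3 of EVI1-labelled cells), were called lower. SMAD3, at 0.67 ± 0.14 (adjusted p = 0.025), was called higher. SMAD3 lost its call without any of 7 arrays, with an adjusted p of up to 0.0766 (without ethanol array 1 of empty vector cells), and with the mean over its probe sets had 0.43 (adjusted p = 0.0532).

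The adenosine receptor gene ADORA3 and THBD, which encodes the anticoagulant receptor thrombomodulin, were called lower among 20 tryptophan, purine and coagulation genes, and KMO and the nucleotide receptor gene P2RY2 higher. They were 20.0% of that list, against 1.98% of all genes. ADORA3 rose from 4.60, 4.37 and 4.89 to 8.55, 8.46 and 8.32 in empty vector cells and from 4.52, 4.34 and 4.85 to 6.36, 5.51 and 6.13 in EVI1-labelled cells, with no overlap between the TPA groups and both ethanol groups below 5.07. Its difference was -2.39 ± 0.28 (adjusted p = 0.000664) and held without any 1 array. PTGS2, the inducible cyclooxygenase gene, had -1.39 ± 0.27 (adjusted p = 0.0213) with ethanol levels below 5.07, lost without any of 3 arrays, with an adjusted p of up to 0.0639 (without ethanol array 3 of empty vector cells).

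Of 26 interferon response genes 15 rose in empty vector cells and 19 with the EVI1 label. In limma 0 of the 26 were called for the difference, with 1 at an unadjusted p under 0.05 and a median difference of 0.04. That gene was GBP1, an interferon-induced GTPase gene, at 2.28 ± 0.58 (adjusted p = 0.068), whose ethanol levels lay below 5.07. Lists with 0 called also included granule proteins (3 of 18 at an unadjusted p under 0.05), lysosome and cathepsins (7 of 21), actin and podosome (3 of 23), glycolysis and hypoxia (4 of 25), MHC (6 of 24), MYC and ribosome biogenesis (1 of 18) and the respiratory chain (1 of 22). Among all genes 2481 had an unadjusted p under 0.05. MS4A3, a membrane protein gene of myeloid precursors, had a difference of 0.65 ± 0.34 (adjusted p = 0.463). Lists with single calls included cytokine and chemokine receptors (CCR2, of 27, or 3.7%) and NRF2 targets (SRXN1, a sulfiredoxin gene, of 20, or 5.0%). Another 2 calls each fell to the ATF4 list (SLC7A5 and the phosphatase regulator PPP1R15A, of 22) and the inhibitory receptor list (CD300A and the adhesion gene ICAM1, of 22). Both of these lists had 9.09% called, against 1.98% of all genes. SRXN1 had -0.58 ± 0.13, PPP1R15A -0.88 ± 0.20 and ICAM1 -0.86 ± 0.17, and these calls were lost without any of 10, 11 and 7 arrays, with adjusted p of up to 0.104 (without ethanol array 2 of EVI1-labelled cells), 0.115 (array 3) and 0.0683 (array 1).

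**Figure D4:**
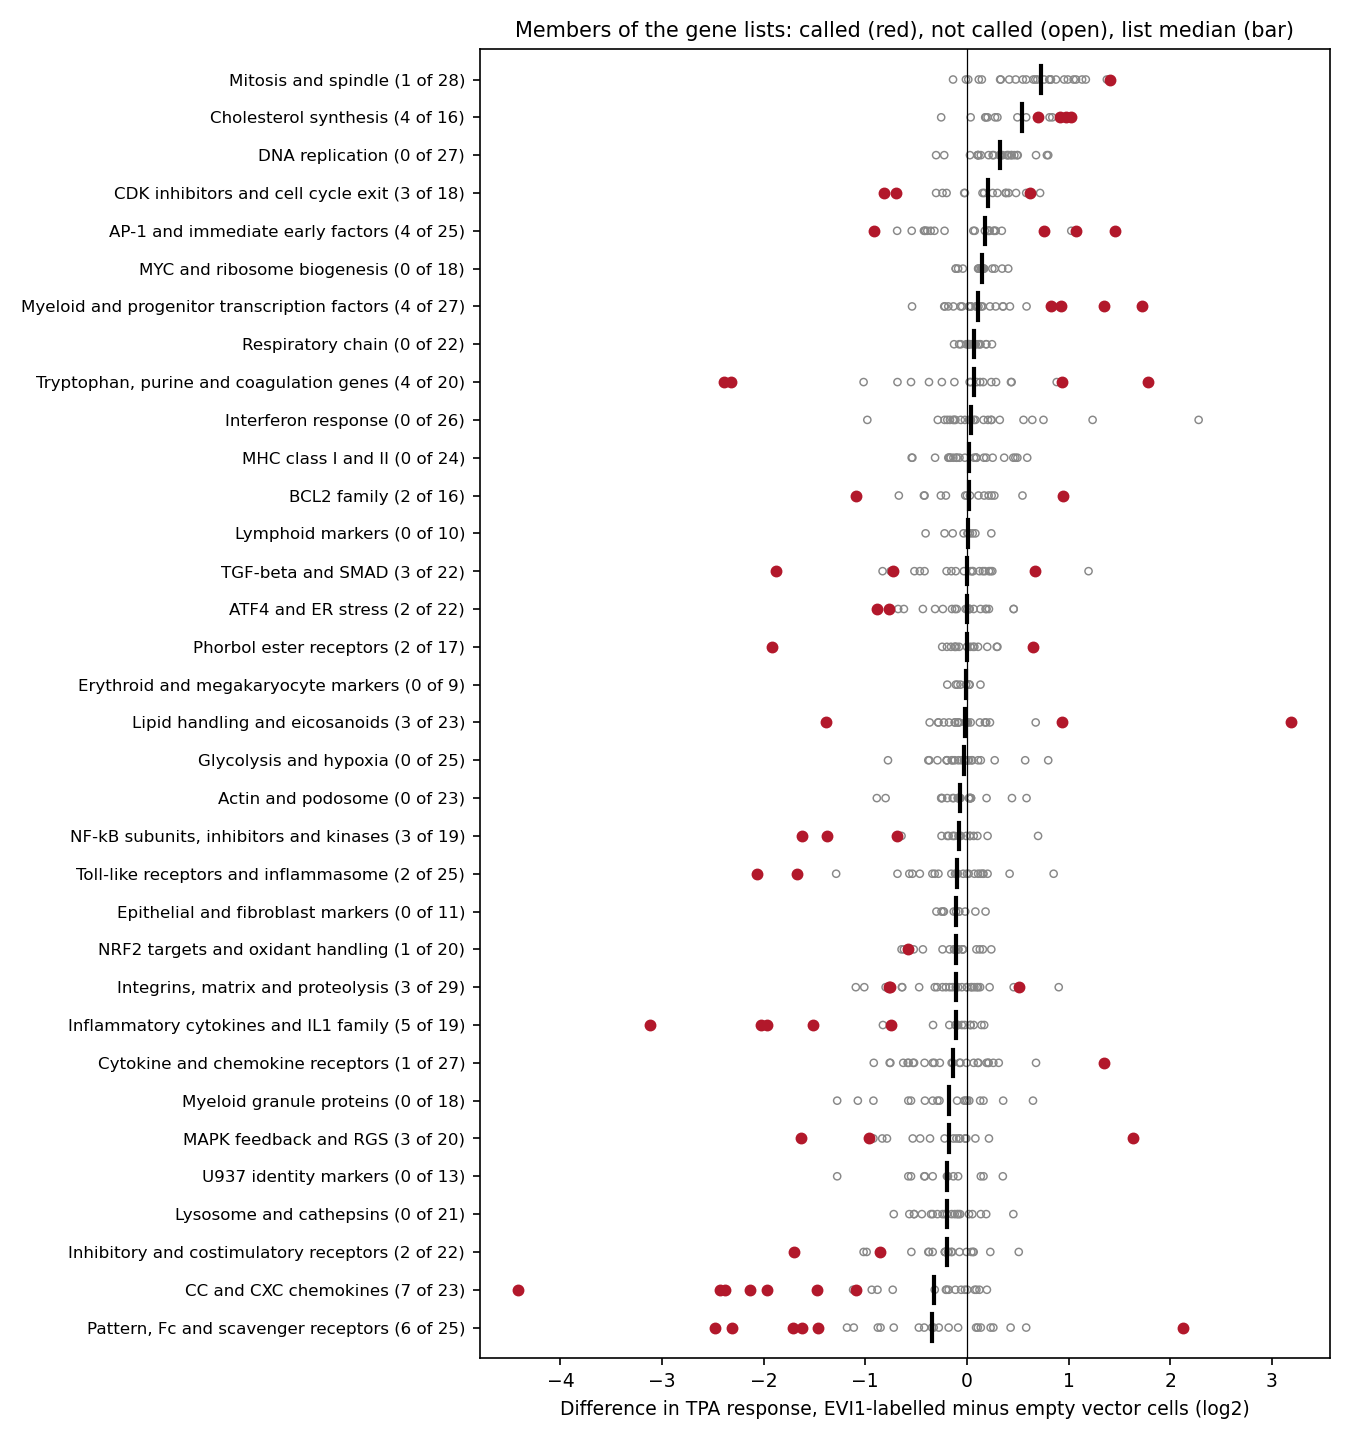
Each row is a gene list and each point the log2 difference in TPA response of 1 member, filled red where called and open where not, with a bar at the list median and the number called of those measured beside the name. Called members of the cytokine, chemokine and NF-kB lists lie below 0, those of the cholesterol and progenitor factor lists above 0, and the medians run from -0.34 to 0.73.

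The gap between the populations opened after TPA for most called genes. The difference between populations was called in TPA and not in ethanol for 326 of 392, in ethanol and not in TPA for 36, in both for 24 and in neither for 6. Among all genes 3.27% were called between populations in ethanol (1.32% higher and 1.95% lower in EVI1-labelled cells) and 11.2% in TPA (5.9% higher and 5.3% lower), and these comparisons share their arrays with the difference. The TPA gap was the larger in size for 342. Of the 24 called in both, 15 kept the sign and 9, CD36 and GRHL1 among them, changed it.

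For some genes the populations differed in ethanol and came together in TPA. CD300A, an inhibitory receptor gene, read 5.47, 5.0 and 5.70 in empty vector cells in ethanol and 6.72, 7.26 and 7.08 in EVI1-labelled cells, then 10.99, 11.05 and 10.90 and 10.98, 10.94 and 10.80 in TPA. Its ethanol groups were apart and its TPA groups overlapped, and the gap went from 1.63 ± 0.16 to -0.07 ± 0.16, for a difference of -1.70 ± 0.23 (adjusted p = 0.00179). CCR2, the receptor gene for CCL2, and P2RY2 began lower in EVI1-labelled cells, at -1.06 ± 0.18 and -1.20 ± 0.12, with differences of 1.35 ± 0.25 (adjusted p = 0.0146) and 0.94 ± 0.17 (adjusted p = 0.0135). CCR2 lay below 5.07 in empty vector cells in TPA, at 4.09, and in both EVI1-labelled groups, at 4.92 and 4.37. Its fall with the EVI1 label, -0.55 ± 0.18, was called (limma adjusted p = 0.0215). That fall lay within the background range, so its size and that of the difference are uncertain. These 3 held without any 1 array. The 2 other CD300A probe sets, at -0.42 and -0.01, were not called. The second CCR2 probe set had -0.34, and with the mean of both the adjusted p was 0.220. THBD was the opposite case, with a gap of -2.19 ± 0.33 in ethanol and -4.51 ± 0.33 in TPA. Both of its EVI1-labelled groups, at 3.83 and 4.87, lay below 5.07, so the sizes of these gaps are uncertain, and it lost its call without any of 5 arrays, with an adjusted p of up to 0.0656 (without ethanol array 3 of EVI1-labelled cells).

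**Figure D5:**
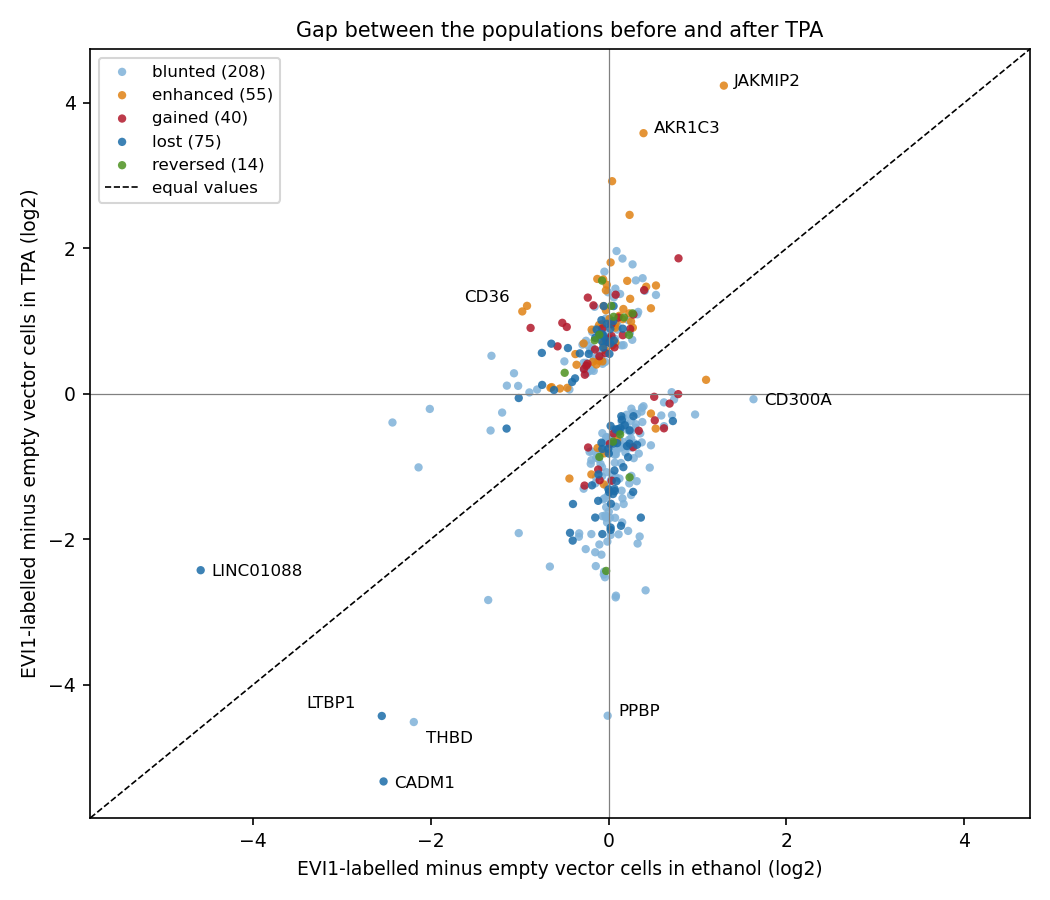
Each point is 1 of the 392 called genes, with the log2 gap between EVI1-labelled and empty vector cells in ethanol on the x axis and in TPA on the y axis, coloured by class, and the dashed line marks equal gaps. Most points lie near 0 on the x axis and spread along the y axis, 342 of them farther from 0 in TPA, with CD300A near 0 in TPA and CADM1, LTBP1 and THBD below 0 in both.

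Called genes were set against the size of the empty vector response. Of 4094 genes that rose with TPA in empty vector cells (20.7% of those tested), 5.62% were called, and of 4441 that fell (22.5%), 2.75%. Among genes that moved by at least 3 the shares were 24.3% of 222 rises, 48 of them blunted and 6 enhanced, and 6.88% of 218 falls, all 15 of them blunted. The same empty vector arrays choose these genes and enter the difference, which by itself favours smaller responses in the other population, so the shares are a description without a test.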

How the data were processed

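Total RNA from 12 U937 samples, 4 groups of 3, was hybridised to Affymetrix U133 Plus 2.0 arrays. The deposited values are log2 expression values. Per the submitters' processing notes, the authors made them by RMA, using Affymetrix Expression Console 1.3. This forces arrays to 1 distribution, so a shift shared by most genes is not seen, and the sources used here do not say if all 12 arrays were processed in 1 run. Array medians lay between 5.07 and 5.11. The number of arrays limits the precision, with a median SE of 0.15 for the difference and 0.11 for a response.

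Of 54675 probe sets 41097 named 1 gene in the platform annotation, 1801 several and 11777 none. Each of 19775 genes was given its single-gene probe set with the highest mean, and 10523 genes had more than 1. The difference in response, both responses and both gaps between populations came from 1 limma 3.58.1 fit in R 4.3.3, with a mean per group, two-sided tests and Benjamini-Hochberg adjustment over all genes at 0.05. The fit was tested on simulated data with noise drawn independently for each array, so shared deviations of replicates were not part of it. Differences of 0.5, 1 and 2 were placed in 200 genes each, and 35%, 84.5% and 99% of them were recovered. Of all calls 6.62% were false. The fit to the deposited values was the same. It had no replicate block, so neither the difference nor the gaps were paired in it. Arrays of the same replicate number deviated together from their group means, with correlations of 0.415, 0.130 and 0.151 between the TPA-treated groups. Between ethanol and TPA they were 0.157, 0.105 and 0.079 in empty vector cells and 0.145, 0.091 and 0.208 in EVI1-labelled cells. Between the ethanol groups they were 0.176, 0.143 and 0.075. In these comparisons each exceeded the values for unlike numbers. Across both population and treatment they ran from -0.020 to 0.182. The difference and the gap in TPA were also fitted with the number as a block.

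The members and gene lists were chosen with earlier results of these data known. Named genes were up to 5 per class and direction with the largest difference whose highest group mean passed the median gene, up to 2 called each way per list, and MECOM, MS4A3 and CDKN1A. Further called list members, list members that were not called, the remaining reversed genes, NFIA, HMGA1 and the receptors of the closing part were named after their values were seen, as was the level of 5.07 chosen. Alternatives were another normalization, the mean over probe sets, a filter on low genes, a replicate block, a trended robust prior, stricter thresholds and leaving out each array.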

Additional observations from a re-analysis of the deposited data

Results flagged for a closer look

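The response to TPA differed between the populations, by the test of the difference itself, for 392 genes, sorted into 75 lost, 208 blunted, 55 enhanced, 40 gained and 14 reversed. In the 14 reversed genes the responses were called in opposite directions. The difference was -2.41 for AFDN, -1.38 for CDK5RAP2, -0.76 for SLC7A5, -0.71 for ASIC1 and -0.69 for MCUB, which rose in empty vector cells. It was 0.58 for CDC42EP3, 0.78 for ERN1, 0.84 for TIFA, 0.88 for PLS1, 0.89 for CHCT1, 0.92 for IDI1, 1.00 for TPCN1, 1.18 for FAM43A and 1.63 for DUSP2, which fell there. All groups of CHCT1 lay below 5.07. The calls of FAM43A and ASIC1 were lost without any of 7 and 8 arrays. With the mean over probe sets they had 0.51 (limma adjusted p = 0.192) and -0.51 (adjusted p = 0.127). The other FAM43A probe set had the opposite sign, at -0.16. Outside the gene table, 27 of 11721 probe sets that name no gene (0.23%) and 11 of 1801 that name several (0.611%) were called for the difference, against 1.98% of genes, each of which was given its brightest probe set.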

How the results depend on the processing

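The main limits were single arrays, the choice of probe set and dim signals. Leaving out 1 array at a time gave 188 to 681 called genes, 36 to 144 lost, 89 to 358 blunted, 16 to 89 enhanced, 16 to 61 gained and 3 to 29 reversed. At an adjusted p of 0.01, 127 genes were called, 42 lost, 62 blunted, 8 enhanced, 13 gained and 2 reversed. Sorting on responses of at least 1 gave 115 lost, 127 blunted, 23 enhanced and 0 reversed, with 86 unsorted. With low genes left out 86 were enhanced and 25 reversed, and with the mean over probe sets 26 were gained. With the replicate block 516 genes were called, 376 of them shared with the 392, and 22 were reversed, and with the block within each population 437 were called, 329 of them shared. For the gap between populations in TPA, the replicate block, added after the data were seen, gave 2498 called genes over all 12 arrays and 1528 over the 6 TPA arrays against 2214 without it. Of the 392 genes, 328 and 299 then had that gap called in TPA and not in ethanol, against 326. Quantile normalization gave 392 calls, median centring 369, the mean over probe sets 352 with 254 shared, and the trended robust prior 475. No called gene named under the rule changed sign under any of these. Of 88 such genes, 86 stayed called with the replicate block, 82 with the block within each population, 67 with the mean over probe sets and 41 at 0.01. The block lost SLC39A10 (adjusted p = 0.0507) and PLAU (0.053). Within each population it lost PRICKLE1 (0.0824), INHBB (0.0693), NR4A3 (0.0519), DUSP10 (0.0526), PLAU (0.0771) and SRXN1 (0.0704). The cause of each change was not tested.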

Other observations

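Genes of G protein-coupled receptors were picked from the 392 after their values were seen, so they carry no test as a group. There were 15, of which 4 lost a rise, 7 had a blunted rise, 3 a blunted fall and 1 an enhanced rise. How many such receptor genes were measured was not counted, so the 15 cannot be set against the 1.98% called among all genes. GPR34 had responses of 7.05 with the empty vector and 5.52 with the EVI1 label, differing by -1.53 ± 0.20 (SE, limma adjusted p = 0.00179). P2RY12, an ADP receptor gene, rose by 4.46 and 2.68, a difference of -1.78 ± 0.25 (adjusted p = 0.00229). GPR65, an acid-sensing receptor gene, had -1.63 ± 0.25 (adjusted p = 0.00474), and GPR183, an oxysterol receptor gene, lost its rise with -1.10 ± 0.18 (adjusted p = 0.00679). GPR34 and P2RY12 lay below 5.07 in ethanol in both populations. These 4 stayed called whichever array was left out. PTAFR, the platelet-activating factor receptor gene, had -1.55 ± 0.35 (adjusted p = 0.0384) and was not called without any of 10 arrays, with an adjusted p of up to 0.105 (without ethanol array 3 of empty vector cells). PTGER4, a prostaglandin E2 receptor gene, was the enhanced one, at 0.62 ± 0.12 (adjusted p = 0.0158, and 0.0533 without ethanol array 1 of empty vector cells).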
